A study of Mus musculus with 4 samples.

Results

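A set of 10 developmental genes of the lung was followed through the H3K4me3 contact maps of mouse lung fibroblasts, out of 21728 protein-coding genes on chromosomes 1 to 19 and X. They were Tbx2, Tbx3, Tbx4, Tbx5, Foxf1, Tcf21, Meox2, Gata6, Nkx2-1 and Wnt2, chosen by name as genes of lung mesenchyme and described at the transcription start site (TSS) given by the GENCODE mouse annotation on GRCm38 (mm10). HiChIP-seq joins proximity ligation with immunoprecipitation, so that each valid pair of reads marks 2 places that lay close together in the nucleus, and places carrying the precipitated mark are over-represented. H3K4me3, trimethylated lysine 4 of histone 3, sits at active promoters. The cells were MLg (ATCC CCL-206), a single established mouse lung fibroblast line, and the series was made to ask how mature miR-9 in the nucleus bears on chromatin loops during TGFB1 signaling. There were 4 libraries, 1 for each condition, all precipitated with the same H3K4me3 antibody (ab8580). The Control library carries the label WT. The TGFB1 library came from cells given human recombinant TGFB1 at 5 ng/ml for the last 4 h. The TGFB1+miR-9-LOF library received the same TGFB1 and a miR-9-5p-specific antagomiR at 60 nM, and the miR-9-LOF library the antagomiR without TGFB1 (LOF, loss-of-function). Cells were harvested 24 h after transfection. The labels name no antagomiR for Control and TGFB1, and the study describes these HiChIP cells as transfected with a control antagomiR.

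The antagomiR was directed against the following mature miRNA, shown because its loss separates 2 of the libraries from the other 2. The RefSeq sequence on GRCm38.p6 is the same at Mir9-1 (chr3:88215613-88215635), Mir9-3 (chr7:79505279-79505301) and Mir9-2 (chr13:83738821-83738843), all on the + strand, and capitals mark the seed, bases 2 to 8, read 5′ to 3′.
mmu-miR-9-5p: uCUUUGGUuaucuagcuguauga

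The genes fall into known roles. The T-box factors Tbx2, Tbx3, Tbx4 and Tbx5 are DNA-binding regulators of lung bud growth and branching, and lie in the genome as the ancient neighbour pairs Tbx2-Tbx4 and Tbx3-Tbx5. Foxf1 is a forkhead factor of the Hedgehog-responsive mesenchyme, Tcf21 a basic helix-loop-helix factor of fibroblast progenitors, Meox2 a homeobox factor of mesoderm, and Gata6 a zinc finger factor used in both mesenchyme and epithelium. The remaining genes are less well described by the name of the group: Nkx2-1 is the homeobox factor that defines lung epithelium, and Wnt2 encodes a secreted ligand of the mesenchyme and not a transcription factor. In lung development mesenchymal factors and ligands of this kind instruct the neighbouring epithelium.

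The libraries held 10864558 valid pairs in TGFB1 to 15568047 in miR-9-LOF, and 4793354 to 6692306 of them joined places 20 kb to 2 Mb apart on 1 chromosome. Stretches of 1-kb bins enriched at least 4-fold over their surroundings in the pooled libraries lay within 2 kb of the TSS of 8266 coding genes (38.0%), called marked here. The share of all pair ends inside such stretches was 10.1% in Control, 7.28% with TGFB1, 4.27% with TGFB1+miR-9-LOF, and 4.95% with miR-9-LOF, so the enrichment itself differed between libraries. Ratios between libraries are therefore given relative to promoters of the same class, marked or unmarked, and how far this share bears on single genes was not tested. As a check of the cell type, 4 of 10 fibroblast markers were marked (Col1a1, Col6a1, Vim and Pdgfrb), as were 1 of 8 lung epithelial markers (Foxj1), 0 of 5 endothelial and 0 of 5 leukocyte markers. The fibroblast share is near the 38.0% of all coding genes and so does not single out the cell type. Summed over the lists, which differ in length, the levels were 16.1 to 26.2 times the median promoter for the 10 fibroblast markers, 7.40 to 8.98 for the 8 epithelial, 3.12 to 4.46 for the 5 endothelial and 2.64 to 3.29 for the 5 leukocyte markers over the 4 libraries. Per gene these are means of 1.61 to 2.62, 0.925 to 1.12, 0.623 to 0.893 and 0.528 to 0.657. With 1 library per condition, every interval and p below covers counting error only and compares libraries, not conditions, and fewer cells with a marked promoter cannot be told apart from less of the mark per cell.

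H3K4me3 divided the 10 promoters evenly. Tbx3, Foxf1, Tbx5, Gata6 and Tbx2 stood above the median coding promoter and carried an enriched stretch, both in the pooled data and in each of the 4 libraries taken alone. Tbx4, Wnt2, Tcf21, Nkx2-1 and Meox2 had no stretch. The level is the number of pair ends within 2 kb on either side of the TSS, a window of equal length for every gene, and a fold is taken over the median of all 21728 coding promoters in the same library, which was 103 ends in Control, 68 with TGFB1, 80 with TGFB1+miR-9-LOF, and 88 with miR-9-LOF.

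Tbx3, a repressor in many organ buds, was the highest. Its promoter (chr5, TSS 119670669, + strand) held 1111 ends in Control, 612 with TGFB1, 406 with TGFB1+miR-9-LOF, and 493 with miR-9-LOF. In Control this was 10.8 times the median promoter (95% Poisson interval 10.2 to 11.4), and its mean fold over the 4 libraries placed it at rank 245 of all coding promoters. Control and TGFB1 stood above both antagomiR libraries, whose folds were 5.08 and 5.60. Foxf1, which is required for the mesenchyme and vessels of the lung, followed with 726, 401, 235 and 354 ends in the same order of libraries, 7.05 times the median in Control (6.55 to 7.58) and 2.94 in TGFB1+miR-9-LOF, its lowest. Tbx5, needed for lung bud initiation and for the heart, held 601, 272, 231 and 311 ends, or 5.83 times the median in Control (5.38 to 6.32). Gata6 on chromosome 18 held 475, 266, 195 and 223 ends, 4.61 times the median in Control (4.21 to 5.05). Tbx2, which keeps mesenchymal cells dividing, held 334, 237, 202 and 198 ends, 3.24 times the median in Control (2.90 to 3.61), and was the only marked gene of the set whose fold was higher in TGFB1 (3.49) than in Control. The Control intervals of these 5 genes do not overlap. A pair with both ends in a window counts at each end, and the intervals treat these ends as independent, so they may be too narrow. In TGFB1+miR-9-LOF the folds of Foxf1, Tbx5, Tbx2 and Gata6 lay between 2.44 and 2.94 with overlapping intervals, and Tbx3 at 5.08 alone stood apart. Against other marked promoters the levels were ordinary for some: the median marked promoter held 406 ends in Control, more than Tbx2.

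The other 5 promoters lay near or below the median of all promoters. Tbx4, the T-box factor most restricted to lung and limb mesenchyme, held 127 ends in Control, 106 with TGFB1, 130 with TGFB1+miR-9-LOF, and 129 with miR-9-LOF, between 1.23 and 1.63 times the median. It was thus the only unmarked gene of the set above the median in every library, at 2.39 to 2.79 times the median unmarked promoter. Wnt2 held 79, 54, 88 and 73 ends (0.767 to 1.10 times the median), and its interval spanned the median in 3 of the 4 libraries. Tcf21 held 49, 58, 56 and 62 ends (0.476 to 0.853), and was lowest in Control. Nkx2-1 held 38, 23, 35 and 39 ends (0.338 to 0.443), and Meox2 21, 10, 23 and 26 (0.147 to 0.295). Meox2 in TGFB1, with 10 ends, was the lowest value of the set, and its interval there (0.0705 to 0.270) overlapped that of Nkx2-1 (0.214 to 0.508). HiChIP ends gather near cut sites of MboI, the restriction enzyme used, and the window held 5 such sites at Meox2, 8 at Tbx5 and Foxf1 and 16 at Tbx3, against a median of 9. The other unmarked genes were above this median, with 12 sites at Tbx4 and Wnt2, 11 at Nkx2-1 and 10 at Tcf21.

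**Figure D1:**
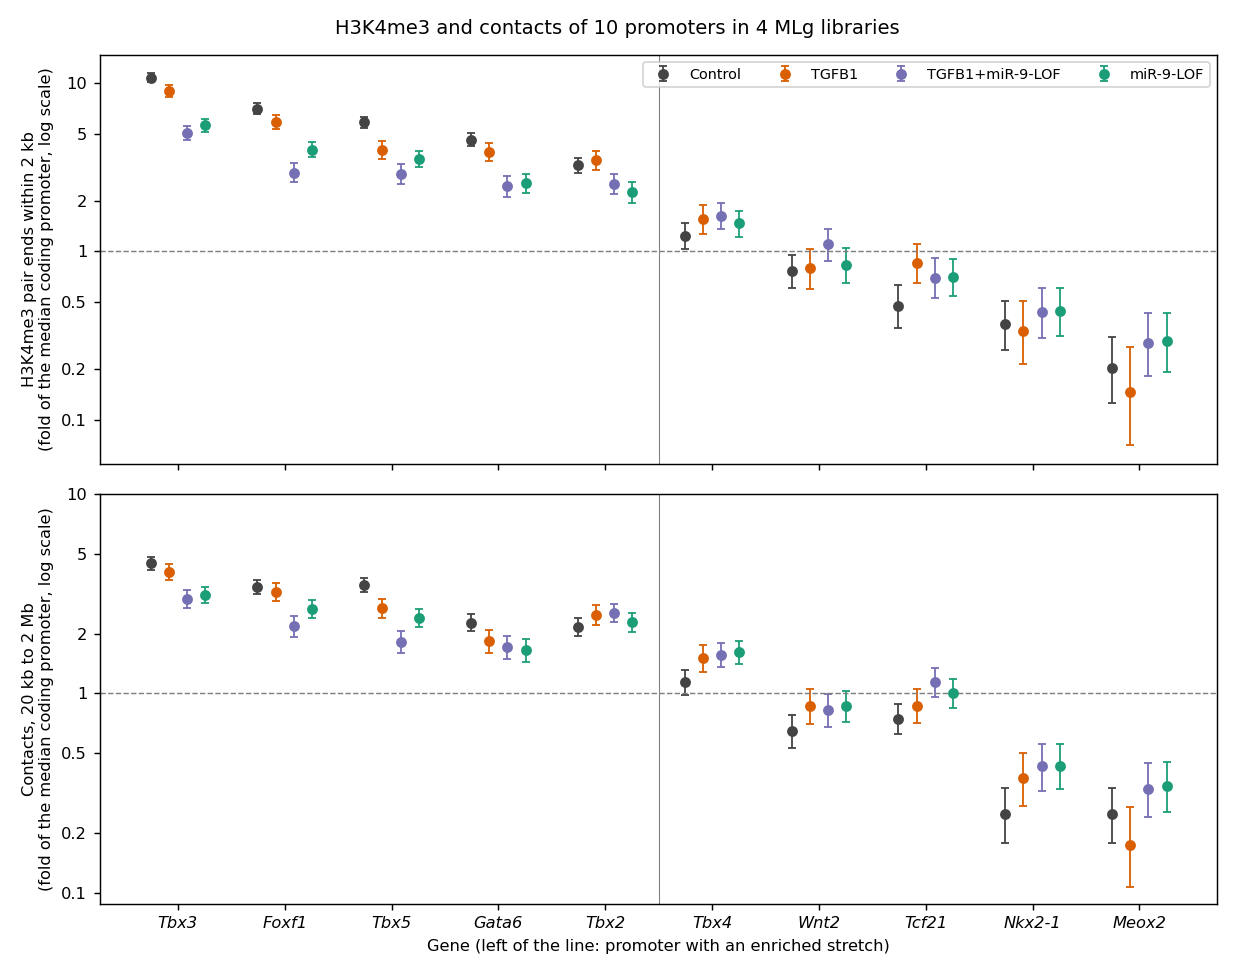
H3K4me3 pair ends within 2 kb of the TSS (top) and contacts 20 kb to 2 Mb away with an end within 10 kb of the TSS (bottom), as fold of the median coding promoter on log axes, for 10 genes in 4 libraries with 1 library per condition. Points are counts divided by the median, bars are exact 95% Poisson intervals, and the grey dashed line is the median. Tbx3 lies at 5.08 to 10.8 for ends and at 2.99 to 4.50 for contacts, and Meox2 at 0.147 to 0.295 and 0.174 to 0.343.

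The mark took different shapes at the 5 marked genes. At Foxf1 the stretch was 5 kb wide (chr8:121081001-121086000), wider than nearly all marked promoters (percentile 99.5 of 8266), and it covered the start of Fendrr, a long non-coding RNA transcribed the other way from 1276 bases upstream, so the ends of these neighbours cannot be told apart. At Tbx3 (chr5:119670001-119673000) and Gata6 it was 3 kb wide (percentile 93.2), at Tbx5 2 kb (chr5:119831001-119833000) and at Tbx2 1 kb (chr11:85832001-85833000), which is the median width of marked promoters. The Tbx3 stretch also held the start of the antisense Tbx3os1, the Tbx5 stretch that of the lincRNA Gm43050, and the Tbx2 stretch that of 2610027K06Rik. At Gata6 the stretch held the start of 1010001N08Rik, and at Foxf1 also that of the miRNA Gm27530. The widths differed between libraries at the same limit. The Foxf1 stretch was 5 kb in Control and TGFB1, 4 kb with miR-9-LOF and 1 kb with TGFB1+miR-9-LOF. That of Tbx5 was 12 kb in Control and 1 to 2 kb in the other libraries, and that of Tbx3 8 kb in Control and 3 kb in the others, while Gata6 had 3 kb and Tbx2 1 kb in each. Over all coding promoters with a stretch the median width was also larger in Control, 2 kb against 1 kb in each of the others. Such promoters numbered 9077 in Control, 8333 with TGFB1, 6484 with TGFB1+miR-9-LOF, and 7383 with miR-9-LOF. The pooled widths also moved with the 4-fold limit: at 3-fold the Tbx5 stretch grew to 12 kb, and at 6-fold Foxf1 kept 1 kb and Tbx2 had none.

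Tbx2 and Tbx5 had further H3K4me3 beside the promoter. At Tbx2 a second stretch of 1 kb (chr11:85844001-85845000) lay 11.9 kb downstream of the TSS, past the 3′ end of the gene at 85841948, with no annotated gene start within 2 kb. It held 403 ends in Control, 214 with TGFB1, 156 with TGFB1+miR-9-LOF, and 189 with miR-9-LOF, against 188, 132, 98 and 102 in the stretch at the Tbx2 start itself. In each library the downstream stretch was thus the higher of the pair. At Tbx5 a 3-kb stretch centred 3.83 kb downstream (chr5:119835001-119838000) held 504, 271, 185 and 234 ends, and a 1-kb stretch 7.83 kb downstream held 117, 58, 51 and 54. The first of these contains the start of the shorter transcript Tbx5-202 at 119836155. A further coding start, that of Tbx5-201 at 119834663, lies between it and the stretch at the TSS. Around Foxf1 the starts of Mthfsd, 24.1 kb away, and of Foxc2, a related forkhead gene 32.1 kb away, carried stretches of 1 kb. No stretch lay within 200 kb of Meox2 or Wnt2.

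**Figure D2:**
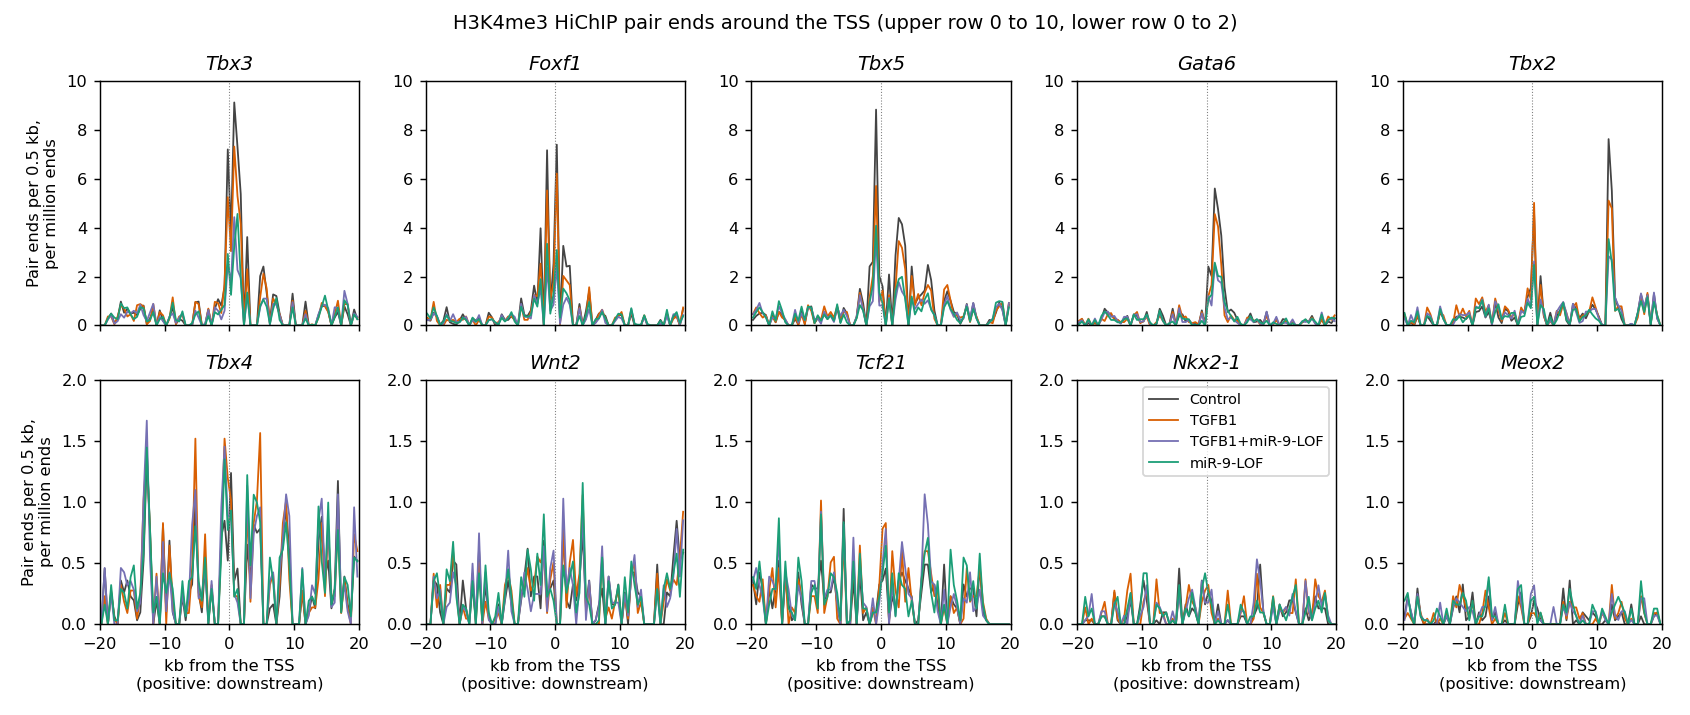
Pair ends per 0.5-kb bin scaled to the total ends of the library, from 20 kb upstream to 20 kb downstream of each TSS, 1 line per library, with the upper row scaled from 0 to 10 and the lower row from 0 to 2. Tbx3, Foxf1, Tbx5 and Gata6 peak at or just beside the TSS and Tbx2 at the TSS and again 11.9 kb downstream, whereas the lower row shows no peak of that height.

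The surroundings of the promoters differed in level as well. Relative to flanks 50 to 500 kb away, the windows of Tbx3 and Gata6 were the most enriched, 5.43 to 14.5 times and 6.03 to 13.8 times over the 4 libraries. Foxf1 reached 3.86 to 11.5, Tbx5 3.10 to 7.99 and Tbx2 2.55 to 4.18, and the 5 unmarked genes 0.830 to 1.90. The flanks of all 4 T-box genes ran above those of the median promoter, at 1.34 to 1.38 times, while the flanks of Gata6 (0.590), Nkx2-1 (0.450) and Meox2 (0.315) ran below. Neighbouring T-box genes share most of their flanks, so their 4 values are not independent. By this local measure the single values of Tbx4, 1.55 to 1.82, were close to those of Wnt2, 1.47 to 1.90, so that its place above the median promoter was shared by its flanks.

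The base composition of the promoters only partly followed the mark. CpG dinucleotides, the sites of DNA methylation, cluster at many H3K4me3-marked promoters, and the observed over expected CpG in 500 bases on either side of the TSS had a median of 0.762 at marked and 0.292 at unmarked coding promoters. Foxf1 (0.850), Tbx3 (0.821) and Tbx2 (0.756) were CpG-rich and marked. Tbx5, although marked, had 0.426, below all 5 unmarked genes of the set, and Gata6 had 0.527. Among the unmarked genes Nkx2-1 had 0.668, Wnt2 0.625, Tbx4 0.512, Tcf21 0.468 and Meox2 0.444, each above the unmarked median.

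The promoter sequences of the 5 unmarked genes are shown because they hold CpG dinucleotides, in capitals, without the mark. They are from RefSeq (GRCm38.p6), read 5′ to 3′ in the direction of transcription and end at the base before a TSS. The entry for Tbx4 belongs to the annotated start of Tbx4-202, 10.3 kb downstream of the first. No RefSeq promoter was used for Tbx2, Tbx3, Tbx5, Foxf1 and Gata6.
Tbx4 (chr11:85896515-85896764, + strand): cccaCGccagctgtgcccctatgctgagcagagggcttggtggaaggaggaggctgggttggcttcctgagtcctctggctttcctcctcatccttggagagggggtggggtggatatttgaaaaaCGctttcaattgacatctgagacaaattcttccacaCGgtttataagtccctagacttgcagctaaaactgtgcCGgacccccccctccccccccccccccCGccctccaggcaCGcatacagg
Wnt2 (chr6:18030586-18030695, - strand): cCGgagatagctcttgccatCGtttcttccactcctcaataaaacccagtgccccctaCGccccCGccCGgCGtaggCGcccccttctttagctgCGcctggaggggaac
Tcf21 (chr10:22820175-22820393, - strand): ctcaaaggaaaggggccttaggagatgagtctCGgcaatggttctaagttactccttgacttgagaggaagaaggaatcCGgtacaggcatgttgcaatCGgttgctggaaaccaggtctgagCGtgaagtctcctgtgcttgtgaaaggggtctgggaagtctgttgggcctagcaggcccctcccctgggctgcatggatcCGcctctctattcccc
Nkx2-1 (chr12:56536909-56537158, - strand): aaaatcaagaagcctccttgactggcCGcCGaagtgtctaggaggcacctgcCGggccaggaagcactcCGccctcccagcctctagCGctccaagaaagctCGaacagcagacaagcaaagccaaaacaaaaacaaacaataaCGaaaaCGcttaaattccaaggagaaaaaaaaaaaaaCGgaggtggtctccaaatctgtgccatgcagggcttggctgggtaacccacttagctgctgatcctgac
Meox2 (chr12:37108290-37108539, + strand): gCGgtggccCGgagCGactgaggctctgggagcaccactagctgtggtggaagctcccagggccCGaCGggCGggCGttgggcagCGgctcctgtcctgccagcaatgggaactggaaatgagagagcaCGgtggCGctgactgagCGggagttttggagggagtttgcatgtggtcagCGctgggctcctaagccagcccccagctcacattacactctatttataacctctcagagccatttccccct

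Over the 250 bases before the RefSeq start Wnt2 held 20 CpG dinucleotides, more than 82.1% of 32851 RefSeq promoters, and Meox2 12, Nkx2-1 9, Tbx4 6 and Tcf21 5, against a median of 6. For Wnt2 only the 110 bases before the GENCODE TSS are shown, with 8 of its 20 CpG, and the rest lie past that TSS. Tcf21 is likewise shown as 219 bases. The letters GGTGTGA, the core of the T-box site, were searched on both strands and occurred in none of the 5, as against 3.33% of all RefSeq promoters. The letters CAGAC, a core bound by SMAD factors of the TGFB1 pathway, occurred 3 times at Tcf21 and 1 time at Nkx2-1, and in 42.2% of all promoters. ACCAAAG, the reverse complement of the miR-9 seed, was also searched on both strands and occurred in none of the 5 and in 3.49% of all promoters.

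The contacts of the 10 promoters were ordered much like their H3K4me3. Contacts are pairs 20 kb to 2 Mb apart with an end within 10 kb of the TSS, and the median coding promoter had 170 in Control, 115 with TGFB1, 130 with TGFB1+miR-9-LOF, and 143 with miR-9-LOF. Pairs are precipitated through the mark, so the 2 measures are not independent. Tbx3 had 765, 469, 389 and 449 contacts, 2.99 to 4.50 times the median. Foxf1 had 585, 371, 283 and 381 (2.18 to 3.44 times), and Tbx5 598, 308, 236 and 342 (1.82 to 3.52 times). Tbx2 had 368, 286, 330 and 326 contacts, 2.16 to 2.54 times the median, and was the most even of the marked genes across libraries. Gata6 had 386, 210, 222 and 236 (1.65 to 2.27 times), below Tbx2 in the 3 treated libraries although it carried more H3K4me3 in Control, TGFB1 and miR-9-LOF.

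Tbx4 had 194, 173, 203 and 230 contacts, 1.14 to 1.61 times the median, again the highest of the unmarked genes. Tcf21 had 127, 100, 148 and 143 (0.747 to 1.14 times) and Wnt2 110, 99, 107 and 124 (0.647 to 0.867 times). Nkx2-1 had 42, 43, 56 and 62 contacts and Meox2 42, 20, 43 and 49, at 0.247 to 0.434 and 0.174 to 0.343 times the median. These 2 were the sparsest of the set, and their intervals overlapped in Control, where both had 42.

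Several of the promoters looked mainly to one side. Over the pooled libraries, 15.9% of the 2072 contacts of Tbx3 lay downstream of its TSS (exact 95% interval 14.3 to 17.5), toward Tbx5, and the rest upstream. Its asymmetry exceeded that of 99.5% of 20851 coding promoters with at least 50 contacts, whose median share was 50.3%, and it was present in each library (14.1% to 17.6%). The contacts of Tbx3 also reached far, with a median distance of 428 kb (percentile 98.8) against 161 kb at the median promoter. Foxf1 had 26.7% of 1620 contacts downstream (24.5 to 28.9; asymmetry percentile 95.9), Tcf21 34.7% of 518 and Tbx2 35.9% of 1310, while Wnt2 (65.5% of 440) and Nkx2-1 (64.5% of 203) had more downstream. Tbx5 was near even, with 52.3% of 1484 downstream, as was Tbx4 with 56.8% of 800, although their upstream neighbours Tbx3 and Tbx2 were not. The 5th and 95th percentiles over coding promoters were 32.3% and 69.0%.

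Each of the marked genes met some places more often than their distance and coverage predicted, as did most marked promoters of the genome. For each marked promoter, 10-kb bins with at least 5 pooled pairs were compared with the pairs expected from the coverage of both places and their distance, and a bin was called at least 2-fold over expectation at an adjusted p of at most 0.05 (one-sided Poisson test). Of all bins tested at all marked coding promoters 11.4% were called, with a median of 3 bins per promoter and none at 26.9% of them. Tbx3 had 23 of 105 bins called, Gata6 19 of 55, Foxf1 9 of 73, Tbx2 8 of 78 and Tbx5 3 of 70. The shares of Tbx2 (10.3%), Foxf1 (12.3%) and Tbx5 (4.29%) were near or below the background, and those of Tbx3 (21.9%) and Gata6 (34.5%) above it. A bin with fewer than 2.5 expected pairs entered the test only when already past 2-fold, as held for 5 of the 19 called bins of Gata6, 1 of the 3 of Tbx5 and 0 at Tbx2, Tbx3 and Foxf1, so the share of Gata6 is partly set by this limit. Without 1 of the libraries, 13 of the 62 called bins fell under 2-fold, among them 5 of Tbx3 and 4 of Gata6. The bins of 1 promoter are neighbours and not independent, and no gene-level test of these shares was made. The distance factor is the same on both sides of a promoter, so the one-sided contacts of Tbx3 and its called upstream bins are not separate observations.

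All 23 bins of Tbx3 lay upstream, from 446 to 896 kb away, and none in the interval that holds Tbx5. The highest (chr5:118870001-118880000), 796 kb upstream, joined the Tbx3 promoter in 77 pairs where 6.87 were expected, 11.2-fold (8.84 to 14.0). It was seen in every library, with 26 pairs in Control, 24 with TGFB1, 12 with TGFB1+miR-9-LOF, and 15 with miR-9-LOF against 2.67, 1.75, 1.13 and 1.39 expected. The bin holds the start of the predicted gene Gm43782 and no H3K4me3 stretch. The Tbx5 promoter met the same bin, 958 kb upstream of it, in 14 pairs against 3.74 expected (3.75-fold, 2.05 to 6.29), 10 of them in Control, 1 with TGFB1, 1 with TGFB1+miR-9-LOF, and 2 with miR-9-LOF. Expected were 1.59, 0.869, 0.519 and 0.803, and without Control the ratio was 1.83, under the 2-fold limit. The other bins of Tbx5 lay 1078 kb upstream in Med13l (7 pairs against 1.46) and 252 kb downstream (26 against 11.8, 2.20-fold, and 1.98-fold without TGFB1).

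At Foxf1, all 9 called bins overlapped the annotated coding gene Gm20388, and 8 of them lay together 179 to 269 kb upstream, beyond Fendrr. The remaining bin, 431 kb downstream, held 15 pairs, 10 of them in Control, and its ratio of 2.20 became 1.10 without Control. The one with most pairs (chr8:120900001-120910000) joined the promoter in 90 pairs where 24.0 were expected, 3.74-fold (3.01 to 4.60), with 32 pairs in Control, 27 with TGFB1, 13 with TGFB1+miR-9-LOF, and 18 with miR-9-LOF. In each library the observed pairs exceeded the expected 8.84, 6.12, 3.86 and 5.38. The bin of highest ratio (chr8:120820001-120830000) held 43 pairs against 11.1, 3.87-fold (2.80 to 5.22). The 8 bins of Tbx2 all lay 298 to 458 kb upstream within the body of Bcas3, a neighbouring gene, the one with most pairs at chr11:85520001-85530000 with 40 pairs against 11.1 (3.61-fold, 2.58 to 4.92). The 19 bins of Gata6 lay on both sides, 11 upstream and 8 downstream, between 37.1 and 373 kb from the TSS, in a region with few pairs. The first by ratio, 293 kb downstream, rested on 8 pairs against 1.55 (5.16-fold, 2.23 to 10.2).

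**Figure D3:**
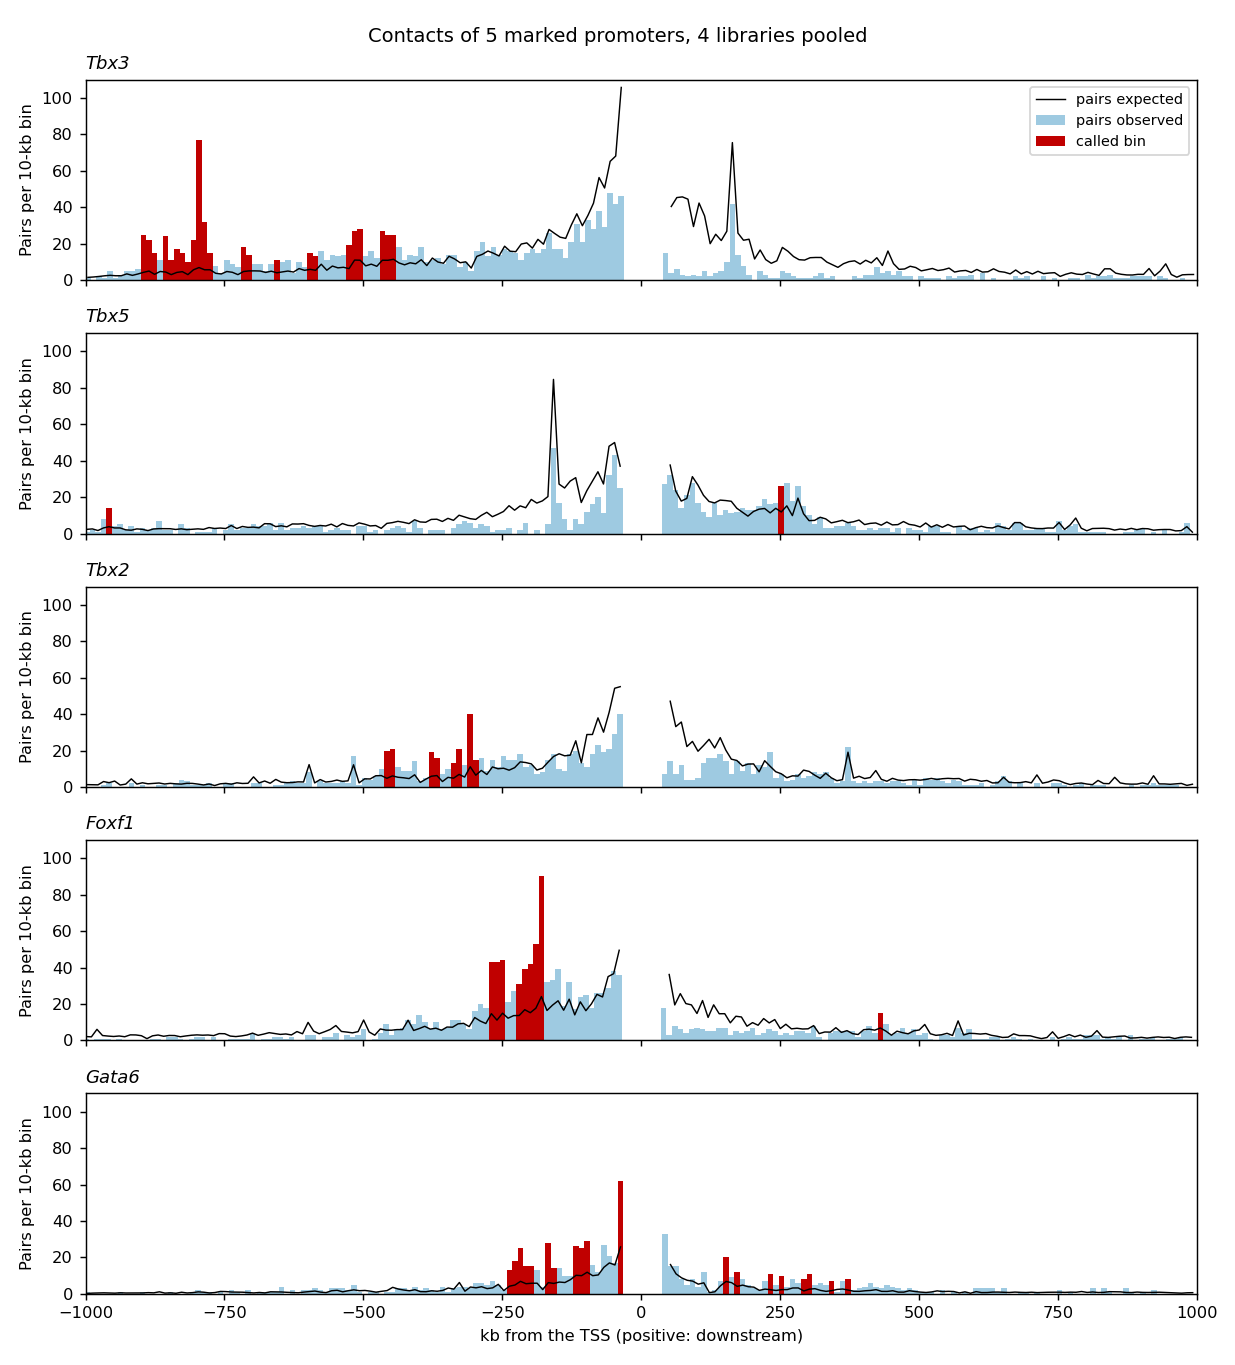
Pairs per 10-kb bin that joined the promoters of Tbx3, Tbx5, Tbx2, Foxf1 and Gata6 with places up to 1000 kb away, 4 libraries pooled. Blue bars are observed pairs, the black line is the number expected from coverage and distance, and red bars are called bins. The highest red bar of Tbx3 holds 77 pairs, 796 kb upstream, and that of Foxf1 90 pairs, 179 kb upstream.

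The neighbouring T-box promoters did not meet more than expected. Tbx2 and Tbx4 lie 53.9 kb apart on chromosome 11, and pairs joining their windows of 10 kb on either side numbered 3 in Control, 2 with TGFB1, 6 with TGFB1+miR-9-LOF, and 8 with miR-9-LOF. From coverage and distance 20.3, 20.1, 22.6 and 22.9 were expected. Pooled, 19 pairs against 86.3 give 0.220 of the expected number (exact Poisson interval 0.133 to 0.344). Of 3513 pairs of coding promoters within 10% of this distance and with at least 20 expected, 14 had a lower ratio, and their median was 0.833. Only 1 of the promoters, that of Tbx2, is marked, and the ratio was 0.263 and 0.277 when the later annotated starts of Tbx4 were used. The low ratio was not particular to Tbx4. With the libraries pooled, each 10-kb bin centred 42.4 to 182 kb downstream of Tbx2 held fewer pairs than expected. The bin at 52.4 kb, which holds the start of Tbx4, had 14 against 47.1. Beside it there were 7 against 46.7 at 42.4 kb and 7 against 33.1 at 62.4 kb.

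Tbx3 and Tbx5, 162 kb apart on chromosome 5 and both marked, were joined by 34 pairs in Control, 13 with TGFB1, 6 with TGFB1+miR-9-LOF, and 2 with miR-9-LOF. Expected were 52.5, 24.1, 12.7 and 19.6. Pooled, the 55 pairs were 0.530 of the 103.8 expected (0.399 to 0.690). This was near the median of 0.614 of 5493 promoter pairs at a like distance with at least 20 expected (percentile 39.2). The contact was lower in miR-9-LOF than in Control by a log2 ratio of -4.07 relative to all pairs at 20 kb to 2 Mb (95% interval -7.17 to -2.10, exact binomial test, p = 2.47e-08, adjusted p = 1.48e-07 over 6 comparisons), with 2 pairs left. With windows of 25 kb the log2 ratio, again relative to all pairs at 20 kb to 2 Mb, was -1.85 (exact test, adjusted p = 1.35e-05). Relative to the pairs expected in each library from its own coverage, with windows of 10 kb, it was -2.67 (exact test, adjusted p = 0.0133). Relative to all pairs, TGFB1 against Control gave -0.91 (interval -1.95 to 0.05) and TGFB1+miR-9-LOF against TGFB1 gave -1.43 (-3.11 to 0.07). Neither passed the exact test (adjusted p = 0.133 for each). Relative to the expected pairs these comparisons gave -0.26 (-1.31 to 0.70) and -0.20 (-1.88 to 1.30), nearer to no change. None of the 3 comparisons of Tbx2 with Tbx4 passed the exact test either, with ratios relative to all pairs from -0.10 to 1.44 and intervals that spanned 0. In the pooled libraries every 10-kb bin centred 44.3 to 994 kb downstream of Tbx3 held fewer pairs than expected. The low counts were thus not confined to the interval up to Tbx5. The bin at 164 kb, which holds the start of Tbx5, had 42 against 75.5. That was more than the bins beside it, with 10 against 26.8 at 154 kb and 14 against 25.8 at 174 kb.

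**Figure D4:**
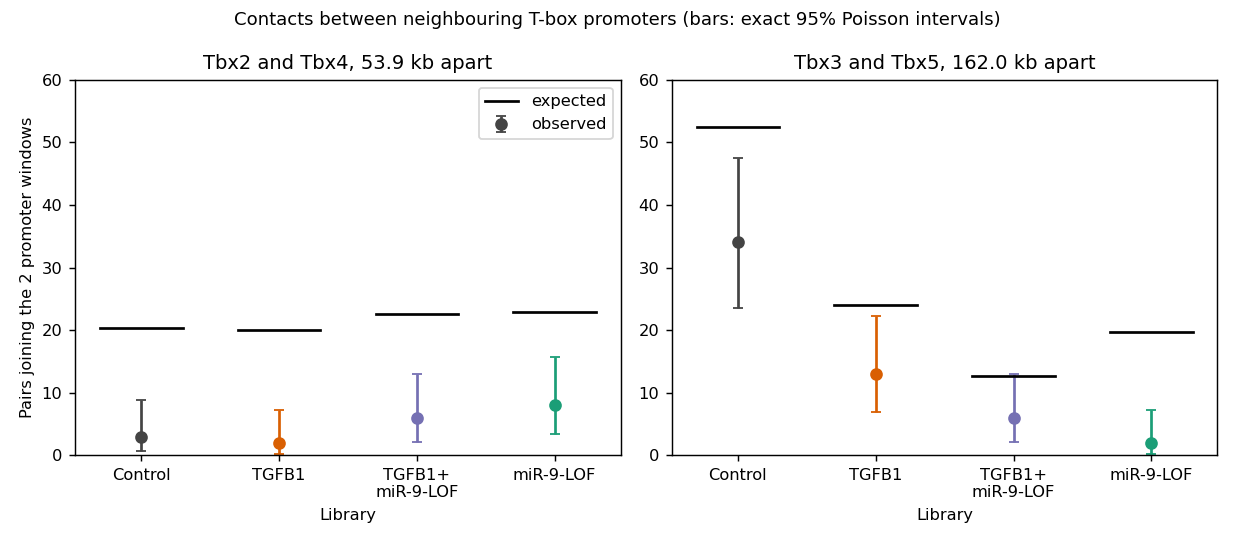
Pairs joining the promoter windows of Tbx2 and Tbx4 (left) and of Tbx3 and Tbx5 (right) in each library. Points are observed pairs with exact 95% Poisson intervals and black lines the pairs expected from coverage and distance. Observed pairs lie below the expected in all 8 cases, with 3 against 20.3 for Tbx2 and Tbx4 in Control and 2 against 19.6 for Tbx3 and Tbx5 in miR-9-LOF.

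TGFB1 against Control asked whether the growth factor moved the mark or the contacts of these promoters. Tbx2 gained on both measures relative to other marked promoters, and none of the other 9 genes passed the test on either. The H3K4me3 of Tbx2, 334 ends in Control and 237 in TGFB1, was higher by a log2 ratio of 0.44 relative to the median marked promoter (interval 0.20 to 0.69, exact binomial test, adjusted p = 0.0241 over all coding promoters), whereas 2.3% of 20773 promoters tested were called in either direction. The median marked promoter itself had a log2 ratio of -0.94 in counts, so that fewer ends at Tbx2 in TGFB1 than in Control still amount to a relative gain. Relative to the 250 promoters on either side in level the ratio was 0.45 (exact test, adjusted p = 0.0453). The call was lost with the median of all coding promoters as reference (0.25, exact test, adjusted p = 0.179), with each pair counted once (0.39, adjusted p = 0.0921) and from pairs on 2 chromosomes or at least 20 kb apart (0.25, adjusted p = 0.620), and with the library total the log2 ratio was 0.00357. Tbx3 had 0.08 (-0.07 to 0.22), Foxf1 0.08 (-0.10 to 0.26), Gata6 0.10 (-0.12 to 0.32) and Tbx5 -0.21 (-0.42 to 0.00399). With the library total as reference Tbx3 (-0.36), Foxf1 (-0.36) and Gata6 (-0.34) turned direction and were called lower (exact test, adjusted p = 5.84e-06, 0.000367 and 0.00835), so the direction at these 3 genes rests on the reference. Of the unmarked genes Tcf21 came nearest, at 0.74 (0.17 to 1.32, exact test, adjusted p = 0.179), on 49 and 58 ends. With the median of all coding promoters as reference Tbx5 and Tcf21 were called, where 10.8% of all promoters were. Both were also called with the library total, where 35.2% of all promoters were.

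Contacts told the same of Tbx2. Its 368 contacts in Control and 286 in TGFB1 gave a relative log2 ratio of 0.41 (0.18 to 0.63, exact binomial test, adjusted p = 0.0310), where 1.81% of 20988 promoters were called. Against promoters of like level it was 0.40 and no longer passed the exact test (adjusted p = 0.0725), nor did it against the median of all coding promoters (0.26, adjusted p = 0.180). The exact test was also missed with windows of 5 kb (0.37, adjusted p = 0.358) and 25 kb (0.18, adjusted p = 0.157), with pairs at least 50 kb apart (0.43, adjusted p = 0.0516) and with the library total (0.12, adjusted p = 0.573). The other ratios ran from -0.59 at Meox2 to 0.52 at Nkx2-1, and that of Tbx4 was 0.32 (0.01 to 0.62, exact test, adjusted p = 0.381).

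TGFB1+miR-9-LOF against TGFB1 asked what the miR-9 antagomiR changed in TGFB1-treated cells. Foxf1 lost H3K4me3, and no gene of the set passed the test for contacts. Foxf1 had 401 ends with TGFB1 alone and 235 with TGFB1+miR-9-LOF, a relative log2 ratio of -0.47 (-0.71 to -0.24, exact binomial test, adjusted p = 0.00662), where 2.57% of 20803 promoters were called. Against promoters of like level the ratio was -0.41 and missed the threshold of the exact test (adjusted p = 0.0846), as did -0.45 in a window of 1 kb (adjusted p = 0.214) and -0.45 from distant pairs alone (adjusted p = 0.111), whereas the library total gave -1.15. Tbx3, with 612 and 406 ends, had -0.29 (-0.48 to -0.11) and stood just outside it (exact test, adjusted p = 0.0547). The other 3 marked genes lay between -0.15 and 0.07, while with the library total Tbx2 and Tbx5 turned to -0.61 each.

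In contacts 2.25% of 20975 promoters were called in this comparison and 0 of the 10 genes. At an unadjusted p under 0.05 by the same exact binomial test there were 5. Foxf1 (-0.35, adjusted p = 0.0795), Tbx5 (-0.34, 0.143) and Tbx3 (-0.23, 0.281) were lower, and Tbx2 (0.25, 0.369) and Meox2 (0.80, 0.406) higher, each given as log2 ratio and adjusted p of the exact test.

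miR-9-LOF against Control asked the same of cells without TGFB1, and shares its Control library with the comparison of TGFB1. Tbx3 had less H3K4me3 and Tbx2 more contacts, relative to other marked promoters. Tbx3 had 1111 ends in Control and 493 in miR-9-LOF, a relative log2 ratio of -0.28 (-0.44 to -0.13, exact binomial test, adjusted p = 0.00394), but the background was high, at 12.9% of 20912 promoters called. Relative to promoters of like level, among the highest of all, Tbx3 had -0.15 and did not pass the exact test (adjusted p = 0.259), and from distant pairs alone it had -0.06 (adjusted p = 0.814). Gata6 had -0.20, Foxf1 -0.15, Tbx5 -0.06 and Tbx2 0.13, none of them called, and with the library total Tbx2 turned to -0.77. Tbx4, with 127 and 129 ends, moved with the choice of reference: its interval relative to unmarked promoters was -0.37 to 0.36, while relative to promoters of like level, which include marked ones, it was higher by 0.59 (exact test, adjusted p = 0.0249).

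Tbx2 kept its contacts, 368 in Control and 326 in miR-9-LOF, where the median marked promoter had a log2 ratio of -0.58. Its relative log2 ratio was 0.40 (0.18 to 0.62, exact binomial test, adjusted p = 0.00441), with 14.5% of 21057 promoters called, and against promoters of like level 0.39 (adjusted p = 0.0143). The gain is relative: with the library total as reference the direction turned, to -0.15 (exact test, adjusted p = 0.274), with the median of all coding promoters it was 0.08 (adjusted p = 0.584), and with windows of 25 kb 0.10 (adjusted p = 0.318). Windows of 5 kb gave 0.35 and also missed the exact test (adjusted p = 0.145). Its neighbour Tbx4 had 194 and 230 contacts, 0.25 relative to unmarked promoters (exact test, adjusted p = 0.265) and 0.58 relative to promoters of like level (adjusted p = 0.00194). Tbx5 (-0.23, exact test, adjusted p = 0.104) and Tbx3 (-0.19, 0.126) were lower without passing.

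**Figure D5:**
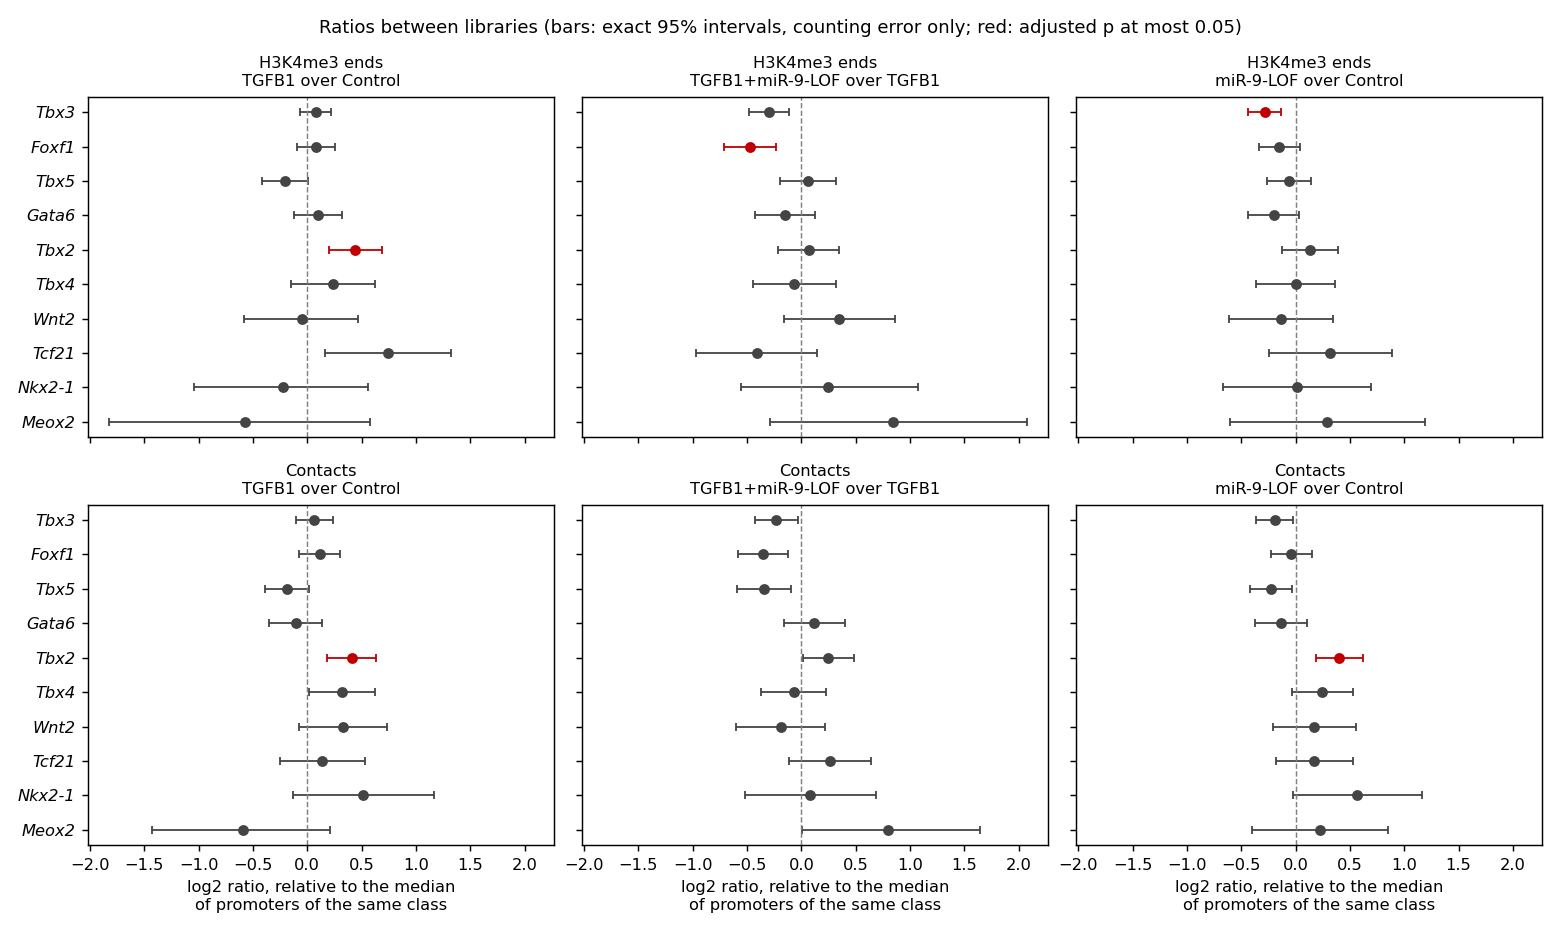
Log2 ratios of H3K4me3 ends (top) and contacts (bottom) between libraries for each gene, relative to the median of promoters of the same class, marked or unmarked. Bars are exact 95% intervals of counting error, and red marks an adjusted p of at most 0.05, reached by Tbx2 at 0.44 and 0.41 in TGFB1 over Control, Foxf1 at -0.47 in TGFB1+miR-9-LOF over TGFB1, and Tbx3 at -0.28 and Tbx2 at 0.40 in miR-9-LOF over Control.

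The difference between the TGFB1 effects with and without the antagomiR was tested itself, by a Wald test in a Poisson model of all 4 libraries. For H3K4me3 0 of the 10 genes passed, as did 0.24% of 20022 promoters. At an unadjusted p under 0.05 there were Foxf1 (log2 difference -0.33, interval -0.63 to -0.03) and Tcf21 (-0.76, -1.51 to -0.00441). For contacts 0 of 10 passed, against 0.0289% of 20760 promoters, and at an unadjusted p under 0.05 there was Foxf1 alone (-0.31, -0.60 to -0.02). The loss of H3K4me3 at Foxf1 in TGFB1-treated cells was thus not shown to differ from the value in untreated cells.

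Beside the 10 genes, 35 other genes of lung mesenchyme signalling were read in the same way, and 20 were marked (57.1%, against 38.0% of all coding genes), with a median level 1.48 times the median promoter. The highest by mean fold were Twist2 (10.8), a mesenchymal helix-loop-helix factor, Gli2 (8.83), which carries the Hedgehog signal, and Tbx18 (8.33), a further T-box factor. The lowest were Osr1 (0.307), Meox1 (0.333) and Tbx1 (0.412), so the T-box genes Tbx18 and Tbx1 stood at opposite ends. For TGFB1 over Control, where 2.3% of all promoters were called in H3K4me3 and 1.81% in contacts, 3 of 35 passed in H3K4me3, Lef1 (0.43) and Foxf2 (0.36) higher and Foxp1 (-0.25) lower, and 3 in contacts, Lef1 (0.43) and Foxf2 (0.39) higher and Hoxb5 (-0.47) lower. For TGFB1+miR-9-LOF over TGFB1, 2 of 35 passed in H3K4me3 and 5 in contacts, against 2.57% and 2.25% of all promoters. There Foxf2, the closest relative of Foxf1, was lower in H3K4me3 (-0.55) and contacts (-0.45), and Gli1 higher in H3K4me3 (1.00). The contacts of Fgfr1 (-0.59), Hoxb5 (-0.43), Foxc2 (-0.39) and Pdgfra (-0.37) were also lower. For miR-9-LOF over Control 2 of 35 rose in H3K4me3 (Bmp4 1.23 and Gli1 0.74) and 6 fell, from -0.28 at Tbx18 to -0.93 at Hoxb5, and 10 of 35 fell in contacts and 0 rose, against the backgrounds of 12.9% and 14.5% given above. All these are log2 ratios relative to promoters of the same class, and promoters of like level were not used as reference here. For H3K4me3 in miR-9-LOF over Control the class medians were -0.89 (marked) and 0.02 (unmarked). Bmp4 was classed as marked at 0.398 times the median promoter in Control and 0.591 in miR-9-LOF, and Gli1 at 0.971 and 1.02. Hoxb5 was classed as unmarked at 3.88 and 2.43 times, so these 3 ratios rest on the class.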

How the data were processed

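H3K4me3 HiChIP-seq was done by the authors in MLg cells, 1 library for each of 4 conditions, and sequenced as paired ends. The authors aligned the reads to mm10 with HiC-Pro, removed duplicates, assigned ends to MboI fragments and deposited lists of valid pairs, so the counts used here are numbers of deposited lines. The deposited mapping quality score of each end served only as a filter (at least 30) in an alternative. The version of HiC-Pro is not given in the sources used here, and the labels give fewer cells than the methods.

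Python 3.11.15 was used for counting, with pandas 2.3.3, pyarrow 21.0.0, scipy 1.17.1 and numpy 2.4.6, and matplotlib 3.10.9 for plots. The TSS is the 5′ end of the gene in GENCODE. Stretches were 1-kb bins at least 4-fold over their background, at an adjusted p of at most 0.01, with single bins bridged. The background was the mean of the surrounding 100 kb in total, leaving out the middle 20 kb. Where it was larger, the mean of the chromosome over bins with an end was taken instead. For this step each library was thinned to 10864558 pairs, the depth of the smallest. Counts of 2 libraries were compared by a two-sided exact binomial test relative to the median log2 ratio of the class, for promoters with at least 10 counts, with Benjamini-Hochberg adjustment over all of them. The TGFB1 effects were compared by a Wald test in a saturated Poisson model, with 0.5 added to each count. Class medians were used because the share of ends in stretches differed between libraries. Pairs carry no molecular identifiers, so intervals (95%) cover counting error only. Percentiles place ties at their middle rank. Procedures were tested on simulated data.

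The 10 genes and the other lists were chosen with earlier results of these data known. All 10 are named, with genes starting in their enriched stretches or in one of the 3 bins of highest ratio, and, of the 35 others, those called or among the 3 highest or lowest levels. Within 2 kb of unmarked genes start Gm29007 (at Meox2) and Gm26973 (at Nkx2-1). Genes that overlap called bins (Bcas3, Med13l, Gm20388), that start at distant stretches (Mthfsd, Foxc2, Tbpl1, Mbip) and the marked cell type markers were named after their values were seen. The alternatives were other windows, distances, filters, TSS, thresholds and references. The promoters of like level, the later starts of Tbx4, the promoter pairs at a like distance and the expected pairs as reference were chosen after seeing the data.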

Additional observations from a re-analysis of the deposited data

How the results depend on the processing

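Results were recomputed with other windows, filters, TSS and references. Of the values for single genes 793 kept their direction and side of the threshold, 45 newly passed it, 18 no longer passed and 10 reversed, and of the counts and ratios that answer a comparison 116 stayed within 1.5 times or kept their side and 29 moved. Numbers of the 10 genes called are given below, with 1 in H3K4me3 for each comparison, and 1, 0 and 1 in contacts, as reported, in the order TGFB1 over Control, TGFB1+miR-9-LOF over TGFB1, miR-9-LOF over Control.

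With the library total as reference, H3K4me3 gave 5, 5 and 5 in the order of the comparisons above, and contacts 3, 3 and 4. With the median of all coding promoters, H3K4me3 gave 2, 4 and 6, where 10.8%, 23.4% and 49.3% of all promoters were called, and contacts 3 in the second comparison (6.94%) and 7 in the third (37.7%). The share of all promoters called rose as well under the library total, to 35.2%, 39.2% and 49.3% in H3K4me3 and 17.6%, 19.4% and 45.9% in contacts. With promoters of like level, the number was 0 for TGFB1+miR-9-LOF over TGFB1 in H3K4me3, 0 for TGFB1 over Control in contacts and 2 for miR-9-LOF over Control in contacts. Pairs on 2 chromosomes or at least 20 kb apart gave 0, 0 and 0 in H3K4me3. For TGFB1 over Control each pair counted once gave 0 in H3K4me3, and in contacts windows of 5 kb gave 0, windows of 25 kb 0 and pairs at least 50 kb apart 0. For TGFB1+miR-9-LOF over TGFB1 a window of 1 kb gave 0 in H3K4me3, and a window of 5 kb, a mapping quality of at least 30 and the TSS of the longest coding transcript each gave 2, Tbx3 and Foxf1. A window of 25 kb gave 2 in contacts there. For miR-9-LOF over Control a window of 5 kb gave 3 in H3K4me3 and 0 in contacts. The cause of these shifts was not tested.

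Reversals came with the reference. With the library total the log2 ratio of H3K4me3 became -0.36 at Tbx3, -0.36 at Foxf1 and -0.34 at Gata6 for TGFB1 over Control, -0.61 at Tbx2 and -0.61 at Tbx5 in the second comparison, and -0.77 at Tbx2 in the third, where the median of all promoters gave -0.37. In contacts it became -0.22 at Tbx3 in the first and -0.15 at Tbx2 for miR-9-LOF over Control. Tbx4 in H3K4me3 became 0.59 with promoters of like level for miR-9-LOF over Control.

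Partner bins numbered 62 and fell to 33 at 3-fold over expectation, and leaving out a library each time gave 54 to 64. The ratio of observed to expected pairs ran from 0.174 to 0.256 for Tbx2 and Tbx4 without 1 library each, and from 0.381 to 0.625 for Tbx3 and Tbx5. No paired analysis was possible because each group has 1 library and the labels give no shared replicate numbers. Depth limits Meox2 and Nkx2-1 most, with 10 to 39 ends per library.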

Other observations

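The other annotated starts of these genes gave levels of their own. Tbx4 has 3 coding starts, and its second, 3.64 kb downstream, held 103 ends in Control, 99 with TGFB1, 111 with TGFB1+miR-9-LOF, and 143 with miR-9-LOF, while the third, 10.3 kb downstream, held 67, 44, 72 and 66. At each of them Tbx4 stayed without an enriched stretch. The third start of Gata6, 0.98 kb downstream of the first, held 634, 325, 264 and 314 ends, more than the 475, 266, 195 and 223 at the first, and the window lay closer to the middle of the stretch. The shorter transcript of Nkx2-1 starts 1.80 kb downstream and held 21, 18, 20 and 23 ends, no more than the first start in any library.

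The stretches nearest to the unmarked genes lay far from them. That of Tbx4, 41.9 kb away, was the one downstream of Tbx2. The single stretch within 200 kb of Tcf21 lay 89.2 kb away at the start of Tbpl1, a general transcription factor, and held 518, 249, 204 and 251 ends. Around Nkx2-1 a stretch at Mbip, 191 kb away, held 72, 29, 27 and 39 ends, and one 159 kb on the other side, with no gene start within 2 kb, held 63, 37, 30 and 56.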
